A study of Mus musculus with 4 samples.

Results

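The genes described here encode the subunits of RNA polymerases I, II and III, the Mediator complex, the TBP-associated factors (TAFs) and the general transcription factors of the Gtf2 and Gtf3 families, as measured in the livers of mice given conjugated linoleic acid (CLA), the PPARα antagonist GW6471, or both. Members were chosen by their symbol (names starting with Med and a digit, Polr1, Polr2 or Polr3 and a letter, Taf and a digit, or Gtf2 or Gtf3). There were 103 of them among the 15500 genes of the table. The family was selected on ratios already seen in these same 4 libraries, so every count and median below describes those libraries and none is a test. A mean level of at least 1 FPKM (sequenced fragments divided by transcript length and by library total) over the 4 libraries was reached by 100 members, which are the ones counted below. The remaining 3 were Med12l, Taf7l and Taf9b.

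Male Kunming mice, bought at 5 weeks of age and acclimated for 1 week, were treated for 28 days, and liver RNA was sequenced as 1 library per condition. The Vehicle group ate chow with 1.5% w/w linoleic acid, the non-conjugated control fatty acid, and received vehicle injections where appropriate. Mice of the CLA group ate 1.5% w/w CLA, an equal mix of its c9,t11 and t10,c12 isomers. The GW6471 group ate the linoleic acid diet and was injected intraperitoneally each day with 20 mg/kg GW6471. In the CLA+GW6471 group the CLA diet and the daily GW6471 injection were combined. Each group is labelled as 6 mice, and livers were taken at zeitgeber time 8, that is 8 h after lights on. The sources used here do not say whether a library came from 1 liver or from a pool of livers. Linoleic acid is itself a fatty acid ligand of PPARα, so the Vehicle and GW6471 groups are not free of dietary fatty acid ligand.

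RNA polymerase II transcribes protein-coding genes, RNA polymerase I transcribes the large ribosomal RNA precursor, and RNA polymerase III makes tRNA and 5S rRNA. At a Pol II promoter, TFIID (TBP with its TAFs), TFIIA, TFIIB, TFIIE, TFIIF and TFIIH place the enzyme at the start site. Mediator bridges DNA-bound activators and the polymerase through its head, middle and tail modules, and a separable kinase module modulates that contact. In liver, Med1 is the best known docking subunit for PPARs and other nuclear receptors. Most of these are housekeeping genes with a steady supply of transcript in most cells.

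With 1 library per condition there was no replicate error and no test could be made between conditions. A ratio of at least 1.5-fold on log2(FPKM + 0.1) was therefore used as a fixed mark of size. The 4 libraries were estimated to hold 18847458 to 19289686 reads each, and these depths gave approximate 95% counting intervals (exact Clopper-Pearson) of the log2 ratio for the 98 members with a mean of at least 1 FPKM and a known transcript length. The median half-width of these intervals was 0.15 on the log2 scale in each of the 4 comparisons. They cover counting error alone, are too narrow where the longest annotated transcript is longer than the one present, and say nothing of differences between mice.

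The labelled tissue was checked against 16 hepatocyte markers, of which 12 were listed and 7 of those 12 had a mean under 1 FPKM. Over the 4 libraries Alb ran from 620 to 1322 FPKM and Hnf4a was at 54.5, 47.3, 47.2 and 51.8 FPKM in Vehicle, CLA, GW6471 and CLA+GW6471, while Ttr, Fga, Cyp2e1 and Cps1 had means of 0.0175 to 0.065 FPKM. These 4 defining hepatocyte genes were thus nearly absent from a table labelled liver, and its highest gene was Sprr1a, a gene of the cornified envelope of squamous epithelium, at a mean of 19942 FPKM. Whether symbols and samples are as labelled could not be settled from the table, and liver is used below as the label. The summed level of the 12 listed hepatocyte markers was 1005 FPKM in Vehicle, 1866 under CLA, 1523 under GW6471 and 933 under both. That sum, nearly all Alb, Trf and Fgb, was higher in the CLA and GW6471 libraries, in which most members described below and Hnf4a were lower, and its part in the members' ratios was not tested. In these bulk samples, fewer cells of a type and less RNA per cell cannot be told apart. Of the other lists, the 4 listed markers of bile duct or other epithelium (4 named, 1 under a mean of 1 FPKM) summed to 85.6, 66.9, 75.1 and 84.5 FPKM in the same order of libraries, lower in both single treatments, an order that Sox9 set (54.7, 34.7, 48.7 and 57.05 FPKM) and that Krt7 and Epcam did not have. The 5 fibroblast or stellate cell markers (4 under 1 FPKM) summed to 1287, 1506, 1350 and 1148 FPKM, nearly all of it Dcn, and the 3 listed macrophage markers (6 named, 2 under 1 FPKM) to 24.2, 36.6, 25.6 and 25.1 FPKM. The part of these lists in the ratios was not tested either. The 4 endothelial markers were all under a mean of 1 FPKM, Ptprc, the 1 listed of 3 lymphocyte markers, was at 0 to 0.01 FPKM, and the blood gene Hba-a1 at 1.8 to 2.02 FPKM.

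Mean levels of the 100 members ran from 1.36 FPKM for Taf7 to 271 FPKM for Polr1d. The latter, a small subunit shared by Pol I and Pol III, was at 279.65 FPKM in Vehicle, 279.56 under CLA, 241.40 under GW6471 and 284.65 under both. The class median of mean FPKM was 49.3 for the 7 subunits shared between polymerases and 38.4 for the 8 subunits of Pol II alone. It was 24.3 for the 15 Gtf2 genes, 13.4 for the 29 Mediator genes, 12.4 for the 7 Gtf3 genes, 11.6 for the 21 TAFs, 11.2 for the 10 Pol III genes and 8.27 for the 3 Pol I genes. Over the 100 members the median was 14.7 FPKM, against 14.3 FPKM over the 10355 genes of the table with a mean of at least 1 FPKM. FPKM is a level per transcript length, so these levels can be set beside each other. Where 4 FPKM values follow each other unnamed, they stand for Vehicle, CLA, GW6471 and CLA+GW6471 in that order.

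**Figure D1:**
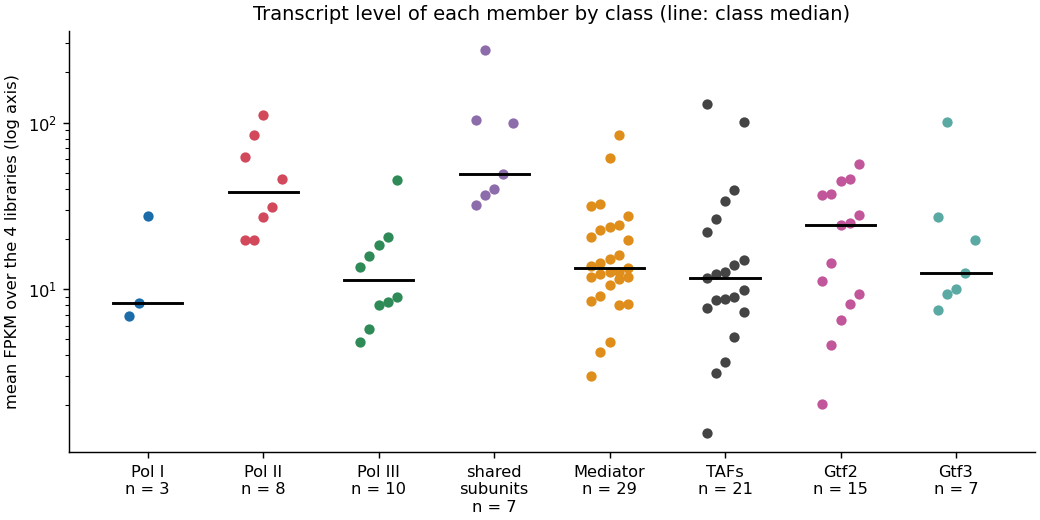
Mean FPKM over the 4 libraries (log axis) of each of the 100 members with a mean of at least 1 FPKM, by class, with the class median as a line. The shared subunits and the Pol II subunits hold the highest class medians, 49.3 and 38.4 FPKM, and Polr1d at 271 FPKM is the highest point.

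The ratio of the highest to the lowest of a member's 4 libraries ran from 1.03 for Med4, a Mediator middle subunit, to 1.99 for Taf12, a histone-fold TAF of TFIID and SAGA. Its median was 1.26 over the members and 1.28 over all genes, so the members varied about as much in size as other genes.

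Most members were lower with CLA on the vehicle background and higher with CLA on the GW6471 background. In the CLA library 73 of 100 members and 50.9% of all genes were below Vehicle, with median log2 ratios of -0.16 and -0.0071. In the CLA+GW6471 library 69 of 100 members and 50.4% of all genes were above GW6471, with medians of 0.11 and 0.0041. With the libraries brought to the same FPKM sum these 2 medians were 0.048 and -0.061. The comparisons of CLA with Vehicle and of CLA+GW6471 with GW6471 share no library. A member was lower in the former and higher in the latter in 62% of cases, against 37.3% of all genes. The opposite order was found for 20% of members and 35.7% of all genes, 11% and 13.5% were lower in both, and 7% and 13% were higher in both. By 1.5-fold in each, 3 of 100 members (Polr2d, Taf12 and Taf1a) and 1.42% of all genes were lower in the former and higher in the latter, and 0 members and 3% of all genes went the opposite way. With the same FPKM sum Polr2d (0.53) and Taf12 (0.56) fell short of the mark in CLA+GW6471 against GW6471 and Gtf2h3 joined Taf1a, so that 2 members and 1.09% of all genes were left.

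GW6471 against Vehicle gave a median of -0.13 over the members and -0.0041 over all genes, with 71 members and 50.6% of all genes lower. CLA+GW6471 against CLA gave 0.19 and 0.0090, with 70 members and 50.9% of all genes higher. Each of these shares a library with both comparisons above and is given for its own values. In terms of library order, the CLA library was the lowest of the 4 for 48% of the members and 34.6% of all genes, and the GW6471 library for 30% and 20.5%. The CLA+GW6471 library was the highest for 43% of the members and 28% of all genes. Both single treatments were below both other libraries for 58 of 100 members, against a background of 31.8% of all genes, and above both for 17 members, against 30.2%. That ordering was picked out after the values were seen.

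**Figure D2:**
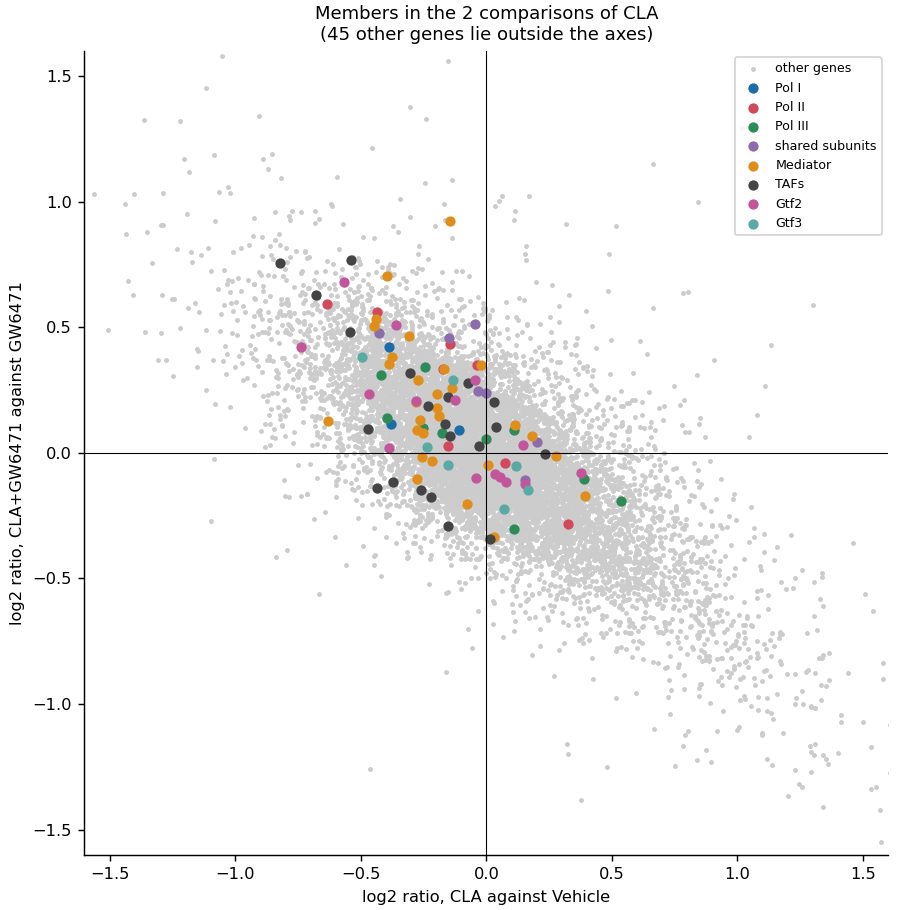
Log2 ratio of FPKM + 0.1 for CLA against Vehicle (x axis) and CLA+GW6471 against GW6471 (y axis), with the 100 members coloured by class and 10255 other genes in grey, 45 of which lie outside the axes. The upper left part, lower with CLA alone and higher when GW6471 was present, holds 62 of the 100 members and 37.3% of all genes.

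Few of these differences reached 1.5-fold. In CLA against Vehicle no member was 1.5-fold higher, against 7.34% of all genes, and 5 members (Gtf2h1, Polr2d, Taf12, Taf1a and Med13l) were 1.5-fold lower, against 4.97%, so the lower count was at the background. In CLA+GW6471 against GW6471, 7 members (Polr2d, Med11, Med27, Taf12, Taf1a, Taf1c and Gtf2h3) were 1.5-fold higher against 2.83% of all genes, and none was lower against 3.89%. Of the 7, Polr2d and Taf12 lost the mark with the same FPKM sum (5 members, against 1.93% of all genes). After the median of genes of like length was taken off, Polr2d (0.46) and Med11 (0.57) lost it, Polr2a (0.69) gained it and Taf1a, with no length, dropped out (5 members, against 2.3%). In GW6471 against Vehicle, none was higher against 3.29%, and Taf1a alone was lower against 2.11%. Between CLA+GW6471 and CLA, 12 members were higher against 6.85% of all genes and none was lower against 9.17%. Just inside the mark in CLA against Vehicle was Med13l at -0.63 and just outside it Gtf2h3 at -0.57. For CLA+GW6471 against CLA, Med11 at 0.59 was just inside and Med8 at 0.58 just outside.

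Counting intervals that lay wholly to 1 side of 0 were common among all genes too, as they set a difference between separate samples against counting noise alone. In CLA against Vehicle the interval lay below 0 for 51% of the 98 members that have one, against 33.5% of 9762 genes, and above 0 for 15.3%, against 32.1%. In CLA+GW6471 against GW6471 it lay above 0 for 48% of the members and 29% of all genes, and below 0 for 12.2% and 30.3%. For GW6471 against Vehicle the shares below 0 were 43.9% and 27.5% and those above 0 were 9.18% and 27.6%. For CLA+GW6471 against CLA they were 54.1% and 35.1% above 0, and 14.3% and 33.8% below 0.

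**Figure D3:**
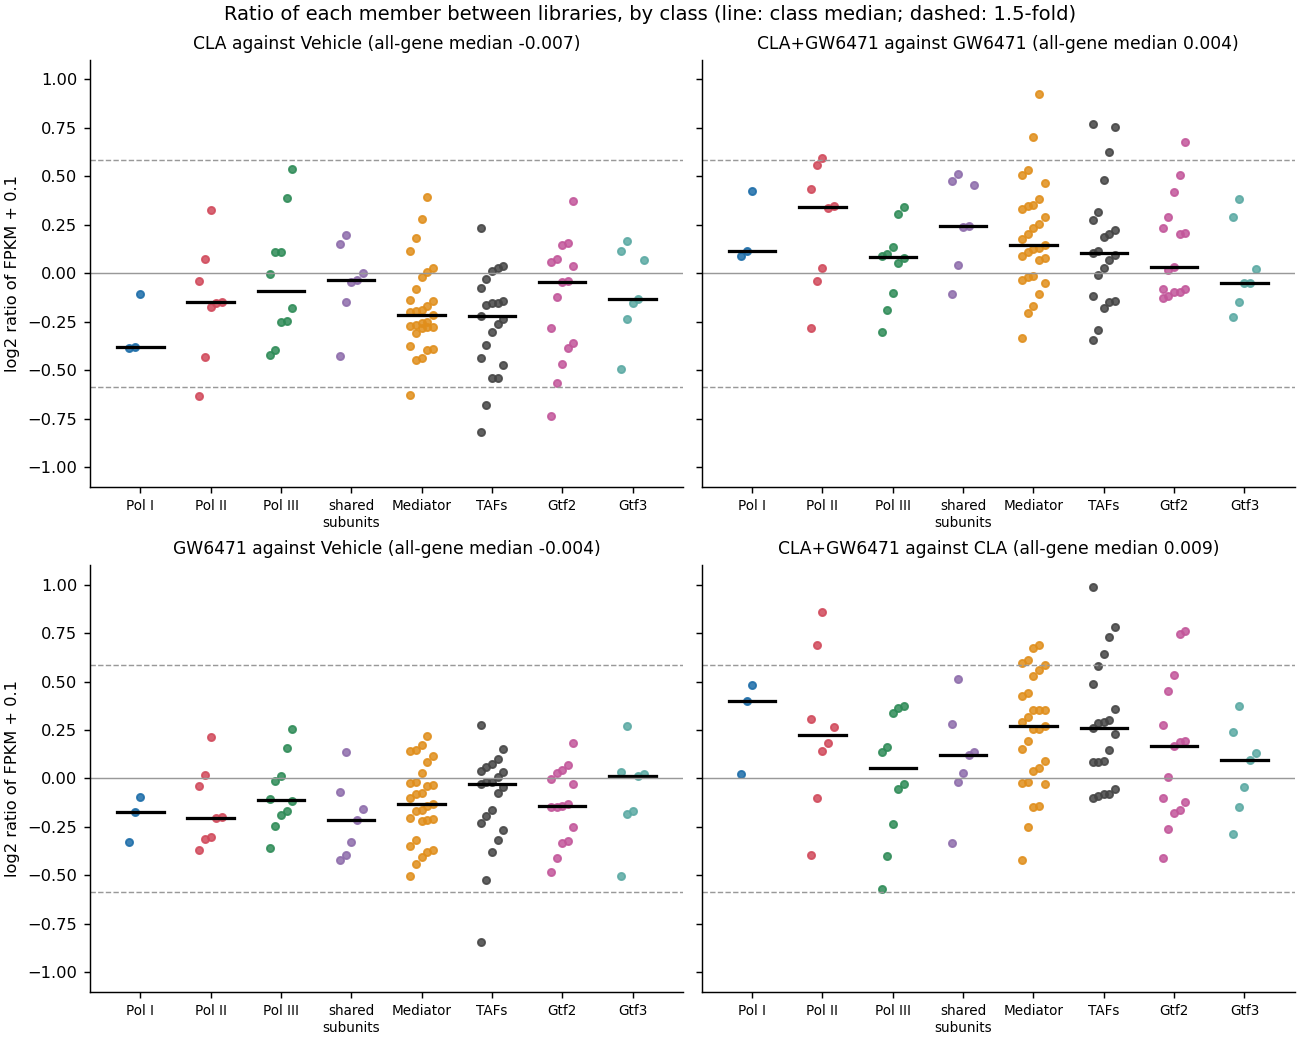
Log2 ratio of FPKM + 0.1 of each member in the 4 comparisons, by class, with the class median as a black line and 1.5-fold as dashed lines. Class medians are all below 0 in CLA against Vehicle and all above 0 in CLA+GW6471 against CLA, and the points past the dashed lines are the members named in the text.

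The 12 members past 1.5-fold in any comparison were Polr2a, Polr2d, Med11, Med12, Med13l, Med27, Taf1a, Taf1c, Taf12, Taf13, Gtf2h1 and Gtf2h3. In all 12 the CLA and GW6471 libraries were both below the other pair, an order that the choice of these genes by their ratios partly sets. RefSeq promoter sequences on GRCm38.p6 were found for 89 of the 103 members and for 11 of these 12 genes, and the 100 bases before the most upstream start were searched on both strands for short motifs chosen after the sequences had been seen. The ETS core CCGGAA, the element of ETS family factors such as GABP common at housekeeping promoters, stood in 6 of the 11 windows, as did the SP1 box. The E-box, the CCAAT box and the TATA box were each in 2 of the 11, the YY1 core in 1, and the nuclear receptor half-site in 0, with the letters of each given after the sequences. The ETS core was in 27.9% of the 86 members with a mean of at least 1 FPKM and a window, and in 16.1% of 8414 genes of the table. These 6 windows are shown because they carry the motif, and that of Polr2a because it carries the TATA box TATAAA. Sequences are written 5′ to 3′ on the strand of the gene, and capitals mark CCGGAA or its complement TTCCGG, and TATAAA.
Taf12, chr4:132274275-132274374, plus strand: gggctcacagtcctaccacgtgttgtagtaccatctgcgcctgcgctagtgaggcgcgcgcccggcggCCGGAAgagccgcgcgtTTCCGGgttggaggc
Taf13, chr3:108571599-108571698, plus strand: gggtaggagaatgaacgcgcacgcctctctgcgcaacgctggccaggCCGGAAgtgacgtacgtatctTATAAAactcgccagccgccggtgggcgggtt
Taf1a, chr1:183388785-183388884, plus strand: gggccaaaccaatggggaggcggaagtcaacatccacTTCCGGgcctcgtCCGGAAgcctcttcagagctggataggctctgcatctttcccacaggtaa
Taf1c, chr8:119605207-119605306, minus strand: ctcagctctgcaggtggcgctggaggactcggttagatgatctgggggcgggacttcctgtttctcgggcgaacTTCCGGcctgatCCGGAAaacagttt
Gtf2h3, chr5:124579048-124579147, plus strand: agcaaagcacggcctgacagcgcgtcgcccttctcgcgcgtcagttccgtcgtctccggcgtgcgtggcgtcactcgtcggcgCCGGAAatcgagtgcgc
Med12, chrX:101273991-101274090, plus strand: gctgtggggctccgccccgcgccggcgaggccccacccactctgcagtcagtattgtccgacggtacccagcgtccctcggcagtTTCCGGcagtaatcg
Polr2a, chr11:69758634-69758733, minus strand: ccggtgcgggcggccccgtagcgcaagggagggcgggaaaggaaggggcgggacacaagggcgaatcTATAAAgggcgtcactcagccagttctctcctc

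In Taf12, Taf1a and Taf1c the window held 2 copies of the ETS core. The copy nearest the start began 15 bases before it in Taf12, 50 bases in Taf1a, 14 in Taf1c, 17 in Gtf2h3 and 15 in Med12. In Taf13 the ETS core began at 53 and a TATA box at 32 bases before the start, and in Polr2a the TATA box began at 33. TATAAA was in 3 of the 86 member windows (3.49%) and in 2.22% of all genes. The SP1 box GGGCGG was in 44.2% of member windows and 49.2% of all, CCAAT in 23.3% and 24%, the YY1 core ATGGCGG in 1.16% and 1.66%, and the E-box CACGTG, bound by CLOCK and BMAL1 among others, in 9.3% and 4.68%. The nuclear receptor half-site AGGTCA was in 5.81% of member windows and 3.43% of all. An exact PPAR-type direct repeat, AGGTCA at both sites with 1 base between, was in 0 of 86 member windows and in 1 of 8414. Elements that depart from those letters or lie outside the window were not counted, so the 0 does not show their absence. A match describes letters in the window and not binding, and the shares overlap where a window holds several motifs.

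Among the Pol II subunits, the largest, Polr2a, which carries the catalytic centre and the C-terminal repeats, was at 33.09 FPKM in Vehicle, 24.47 under CLA, 26.78 under GW6471 and 39.51 under both. Its 2 single-treatment libraries were the lowest, with a log2 ratio of -0.43 (counting interval -0.50 to -0.37) for CLA against Vehicle and 0.69 (0.63 to 0.76) for CLA+GW6471 against CLA. Polr2a lies at chr11:69547499-69572139 on the minus strand of mm9. Polr2d, which with Polr2g forms the stalk of the enzyme, was at 30.04, 19.31, 23.25 and 35.15 FPKM in the same order of libraries. It had the widest spread of the Pol II genes, with log2 ratios of -0.63 (-0.83 to -0.44) for CLA against Vehicle and 0.59 (0.42 to 0.78) for CLA+GW6471 against GW6471. Its partner Polr2g was at 86.78, 77.02, 75.66 and 95.44 FPKM, also lower in both single treatments, by smaller differences.

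The second catalytic subunit did not share this pattern. Polr2b was at 19.49 FPKM in Vehicle, 20.53 under CLA, 19.71 under GW6471 and 19.15 under both, a span of 1.07-fold. Polr2c, a core assembly subunit, ran the other way at 42.05, 52.72, 48.77 and 40.04 FPKM, highest in both single treatments. Polr2j, a core subunit that pairs with Polr2c, was at 116.74, 105.48, 93.90 and 126.81 FPKM. The subunits of this one enzyme therefore did not move as a block: over its 8 genes the ratio for CLA against Vehicle ran from -0.63 to 0.33, with a median of -0.15. Medians in CLA+GW6471 against GW6471, GW6471 against Vehicle and CLA+GW6471 against CLA were 0.34, -0.20 and 0.22. Polr2m, counted here by its symbol, also lies in a locus with read-through transcripts, so its 57.79 to 64.24 FPKM is uncertain.

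Of the 5 small subunits used by all 3 polymerases, 3 were lowest in GW6471, 1 in CLA and 1 in Vehicle. Over all genes 20.5%, 34.6% and 17.4% were lowest in those libraries. Polr2f was at 104.93 FPKM in Vehicle, 101.83 under CLA, 78.34 under GW6471 and 111.98 under both. Polr2l was at 38.56, 34.75, 30.72 and 42.18 FPKM, and Polr2e at 105.25, 102.76, 94.27 and 111.88 FPKM. For these 3 genes GW6471 was the lowest of the 4 libraries. Polr2h differed from them, at 45.02, 33.46, 34.28 and 47.79 FPKM, low in both single treatments, and Polr2k went the other way, at 45.01, 51.72, 49.55 and 51.01 FPKM, lowest in Vehicle. Over the 7 shared genes the median log2 ratio was -0.035 for CLA against Vehicle, -0.21 for GW6471 against Vehicle and 0.25 for CLA+GW6471 against GW6471. Their median annotated transcript length was 1196 nt, against 2659 nt over all members.

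Of the Pol I genes, Polr1a, the largest subunit, was at 29.40 FPKM in Vehicle, 22.60 under CLA, 27.53 under GW6471 and 29.80 under both. Polr1b, its catalytic partner, was at 8.81, 8.17, 7.80 and 8.31 FPKM, and Polr1e, of the Pol I-specific dimer, at 7.59, 5.78, 6.03 and 8.12 FPKM. The CLA library was the lowest for Polr1a and Polr1e and GW6471 for Polr1b. All 3 were below Vehicle under CLA, against 50.9% of all genes, with a median log2 ratio of -0.38.

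Pol III genes were mixed, with 6 of 10 below Vehicle under CLA, against 50.9% of all genes. The largest subunit Polr3a was at 7.72 FPKM in Vehicle, 8.33 under CLA, 7.66 under GW6471 and 8.16 under both, and Polr3b, its catalytic partner, at 9.14, 9.86, 9.21 and 7.44 FPKM. Polr3k, a small core subunit, was at 5.05, 7.37, 5.64 and 4.93 FPKM and had the largest positive ratio of any member in CLA against Vehicle, 0.54. Polr3c, the most abundant gene of the class, was at 49.25, 41.36, 43.23 and 46.28 FPKM, and Polr3d, of the dimer that helps initiation and termination, was nearly level at 18.97, 18.95, 17.60 and 18.27 FPKM. The related pair of alternative subunits went in opposite directions with CLA: Polr3gl was at 17.86, 23.43, 21.37 and 19.89 FPKM, and Polr3g at 5.10, 4.29, 4.28 and 5.45 FPKM. Class medians were -0.089 for CLA against Vehicle and 0.055 for CLA+GW6471 against CLA.

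Of the 29 Mediator genes, 23 were below their Vehicle level under CLA, against 50.9% of all genes, with a median log2 ratio of -0.21. In CLA+GW6471 against CLA, 22 were higher, against 50.9% of all genes, with a median of 0.27. Of the modules, the 3 kinase module genes with a Med symbol had the most negative median in CLA against Vehicle, -0.39. Med13l, 1 of the paralogous pair that links the kinase to the core, was at 8.96 FPKM in Vehicle, 5.76 under CLA, 8.47 under GW6471 and 9.25 under both, so that CLA alone was low. Its log2 ratio was -0.63 (-0.75 to -0.52) for CLA against Vehicle and -0.080 (-0.18 to 0.02) for GW6471 against Vehicle. Med12, which activates the kinase, was at 8.82, 6.71, 8.04 and 10.31 FPKM, with a ratio of 0.61 (0.50 to 0.74) for CLA+GW6471 against CLA. Med13, the paralog of Med13l, was at 13.04, 10.76, 13.83 and 12.86 FPKM, again lowest in CLA. Med12l, the paralog of Med12, was listed at 0.19, 0.19, 0.12 and 0.10 FPKM. The kinase itself, Cdk8, which the symbol rule leaves out, was at 52.90, 42.55, 52.92 and 55.26 FPKM, its paralog Cdk19 at 17.12, 20.15, 20.46 and 15.96 FPKM, and their cyclin Ccnc at 12.23, 12.31, 11.84 and 13.00 FPKM. These 3 genes of the module had a median of 0.0093 for CLA against Vehicle, with 2 of 3 higher, against 48.9% of all genes.

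In the head module, which meets the polymerase, the median over 9 genes was -0.26 for CLA against Vehicle and -0.22 for GW6471 against Vehicle. Med11 was at 22.61 FPKM in Vehicle, 17.16 under CLA, 15.91 under GW6471 and 25.96 under both, with a ratio of 0.70 (0.49 to 0.93) for CLA+GW6471 against GW6471. Med8 was at 25.08, 18.38, 19.41 and 27.61 FPKM and Med6 at 13.89, 10.23, 10.20 and 14.79 FPKM, both low in the same 2 libraries. Med17, the central subunit of the head, was at 12.93, 10.67, 11.49 and 12.23 FPKM. Med30 was the exception of the module, at 29.20, 35.45, 32.28 and 31.97 FPKM.

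The middle module had medians of -0.26 for CLA against Vehicle and 0.35 for CLA+GW6471 against CLA. Its 2 most abundant genes were Med21, at 83.88 FPKM in Vehicle, 74.69 under CLA, 79.72 under GW6471 and 100.39 under both, and Med10, at 70.09, 53.97, 52.91 and 68.99 FPKM. Med1, the nuclear receptor contact, was at 19.12, 16.46, 21.56 and 21.06 FPKM. It was lowest in CLA and highest in GW6471, so it did not share the low level of most members in the GW6471 library. Med14, the scaffold that joins the modules, was at 15.59, 14.76, 18.13 and 15.72 FPKM, highest in GW6471 like Med1. Med4 was nearly level at 13.79, 13.85, 14.07 and 13.61 FPKM.

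The tail module, the part that activators reach, had a median of 0.029 for CLA against Vehicle. There 4 of 7 genes were higher, against 48.9% of all genes. Med27, grouped here with the tail, was at 12.23 FPKM in Vehicle, 11.06 under CLA, 9.38 under GW6471 and 17.90 under both. It had the largest ratio of any member for CLA+GW6471 against GW6471, 0.93 (0.73 to 1.14), and its CLA against Vehicle interval of -0.36 to 0.07 included 0. The gene lies at chr2:29202339-29380313 on the plus strand of mm9. Med16 ran opposite to most of Mediator, at 3.80, 5.02, 4.20 and 3.72 FPKM. Med23 was at 10.59, 10.81, 11.48 and 9.08 FPKM and Med25 at 30.46, 32.99, 29.93 and 32.34 FPKM. Whether the modules differ from each other could not be tested with 1 library a condition.

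Among the TFIID subunits, Taf12 and Taf13, 2 histone-fold TAFs, had the widest spread. Taf12 was at 13.83 FPKM in Vehicle, 8.60 under CLA, 11.06 under GW6471 and 17.14 under both. Its log2 ratios were -0.68 (-0.83 to -0.54) for CLA against Vehicle, 0.63 (0.50 to 0.76) for CLA+GW6471 against GW6471 and 0.99 (0.85 to 1.14) for CLA+GW6471 against CLA. Taf13 was at 13.16, 9.01, 10.09 and 14.13 FPKM, with ratios of -0.54 (-0.73 to -0.36) and 0.64 (0.47 to 0.83) for the first and the last of those comparisons. Taf11, with which Taf13 pairs, was at 9.22, 7.83, 8.05 and 9.18 FPKM. All 3 were low in both single treatments, with smaller differences for Taf11.

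The largest TFIID subunit had another order. Taf1, the scaffold that also reads acetylated histones, was at 11.77 FPKM in Vehicle, 11.89 under CLA, 14.29 under GW6471 and 11.25 under both, highest in GW6471 alone. Taf4a, a core subunit that contacts activators, was at 15.14, 13.51, 14.97 and 16.21 FPKM. Taf10, the most abundant TAF and shared with SAGA, was at 133.59, 136.38, 114.08 and 131.20 FPKM, low in GW6471 alone. Taf9 was at 100.13, 90.05, 98.90 and 115.55 FPKM. The Taf9 locus overlaps another gene and Taf9 has the close relative Taf9b, listed at 0, 0.06, 0 and 0 FPKM, so the split of reads there is uncertain. Taf7l was listed at 0, 0.03, 0.03 and 0.03 FPKM. Over 14 TFIID genes with a mean of at least 1 FPKM the medians were -0.19 for CLA against Vehicle, 0.15 for CLA+GW6471 against GW6471, -0.023 for GW6471 against Vehicle and 0.24 for CLA+GW6471 against CLA.

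All 4 TAFs of SL1, the TBP complex that recruits Pol I, were lower in CLA against Vehicle, with a median log2 ratio of -0.49. Over all genes 50.9% were lower. Taf1a was at 12.86 FPKM in Vehicle, 7.24 under CLA, 7.11 under GW6471 and 12.07 under both, and Taf1c at 4.11, 2.80, 2.83 and 4.89 FPKM. In both genes the 2 single treatments lay together and well under the other 2 libraries. Taf1a had the most negative ratio of any member in CLA against Vehicle, -0.82, and was the only one 1.5-fold lower in GW6471 against Vehicle, at -0.85. It has no counting interval, since no transcript length was matched to it. Taf1c had ratios of -0.54 (-0.84 to -0.27) for CLA against Vehicle and 0.77 (0.52 to 1.06) for CLA+GW6471 against GW6471. Taf1d was at 37.09, 27.43, 37.31 and 33.85 FPKM, a ratio of -0.43 (-0.58 to -0.29) for CLA against Vehicle, close to that of Taf1c, but at the Vehicle level under GW6471. Taf1b was at 9.37, 8.43, 9.78 and 7.97 FPKM. Taf15, an RNA-binding protein of the FET family found with TFIID, was at 42.90, 30.92, 40.66 and 43.45 FPKM, low in CLA alone.

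**Figure D4:**
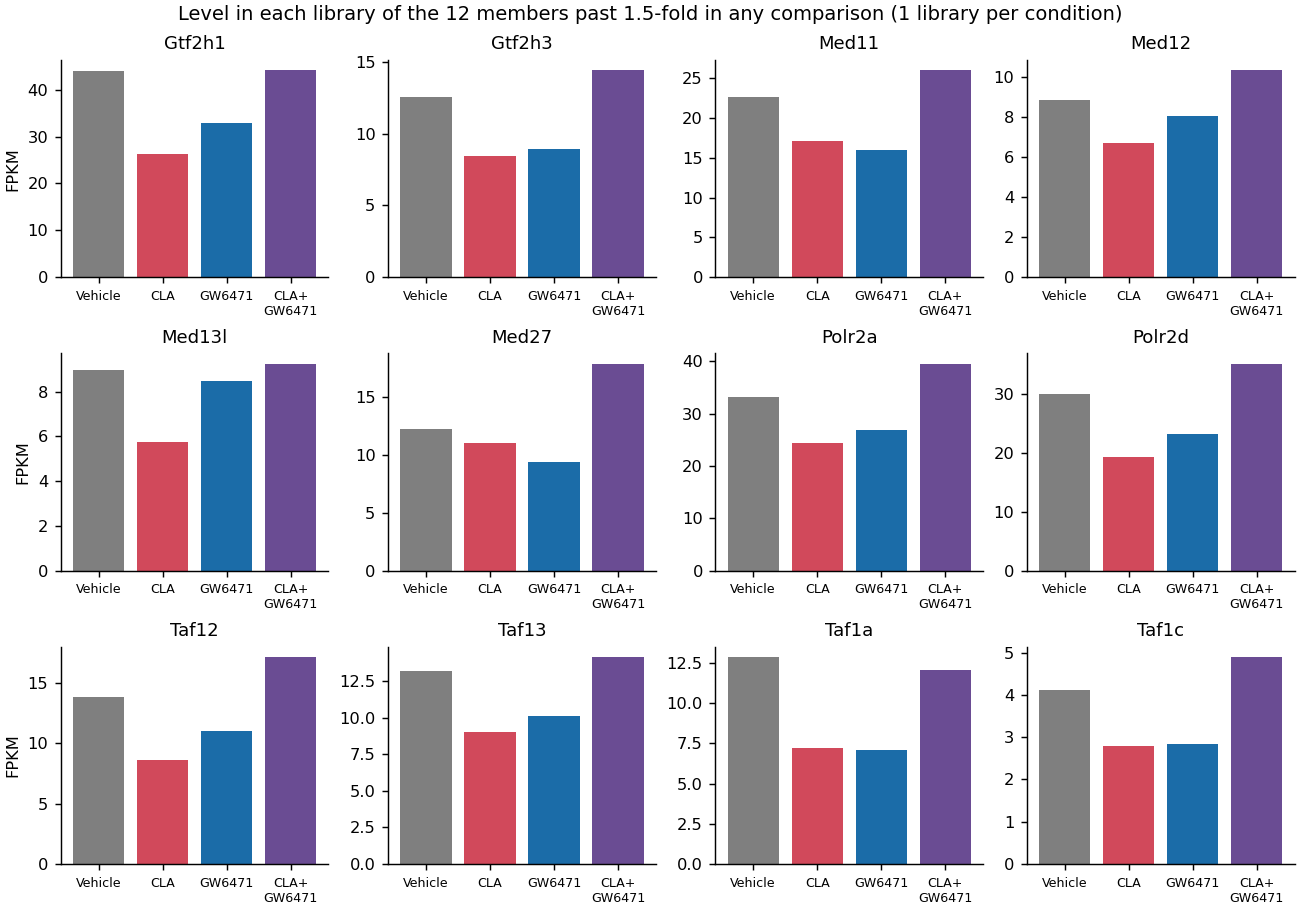
FPKM in each of the 4 libraries (1 bar per library, axes from 0) for the 12 members past 1.5-fold in any comparison. In all 12 the CLA and GW6471 bars are shorter than the other pair, and in Med13l the GW6471 bar at 8.47 FPKM is close to the Vehicle bar at 8.96 FPKM.

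Within TFIIH, the helicase and kinase complex that opens the promoter and also serves in DNA repair, Gtf2h1 and Gtf2h3 stood apart from the other core genes. Gtf2h1 was at 43.88 FPKM in Vehicle, 26.30 under CLA, 32.94 under GW6471 and 44.10 under both. The gene lies at chr7:54051473-54079170 on the plus strand of mm9. Its ratios were -0.74 (-0.84 to -0.64) for CLA against Vehicle and 0.74 (0.65 to 0.84) for CLA+GW6471 against CLA. Gtf2h3 was at 12.56, 8.45, 8.96 and 14.41 FPKM, with ratios of 0.68 (0.52 to 0.86) for CLA+GW6471 against GW6471 and 0.76 (0.60 to 0.95) for CLA+GW6471 against CLA. Gtf2h2, at 8.70 to 9.86 FPKM, and Gtf2h4, at 6.16 to 6.71 FPKM, were almost level over the 4 libraries.

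Elsewhere in the Gtf2 family, Gtf2f1, the large TFIIF subunit, was at 49.51 FPKM in Vehicle, 38.56 under CLA, 39.26 under GW6471 and 55.91 under both, and its partner Gtf2f2 had the same pattern with smaller differences, at 14.73, 13.51, 13.34 and 15.44 FPKM. The TFIIE pair went opposite ways in CLA, with Gtf2e1 at 9.20, 6.63, 7.71 and 9.10 FPKM and Gtf2e2 at 23.18, 30.10, 23.89 and 22.59 FPKM. Gtf2b, the single subunit of TFIIB, was at 45.57, 50.37, 41.18 and 42.10 FPKM, highest in CLA. Gtf2i, of the TFII-I family, which has closely related copies among which reads may be split, was at 56.31, 54.77, 59.05 and 55.15 FPKM, a span of 1.08-fold. The class median over 15 genes was -0.045 for CLA against Vehicle and 0.17 for CLA+GW6471 against CLA.

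Of the 7 Gtf3 genes, which serve Pol III, 3 were below Vehicle and CLA+GW6471 in both single treatments and 3 above both. Over all genes these shares were 31.8% and 30.2%. Gtf3a, the 5S rRNA gene factor TFIIIA, was at 98.93 FPKM in Vehicle, 107.31 under CLA, 100.42 under GW6471 and 96.91 under both. Gtf3c1, the largest TFIIIC subunit, was at 24.39, 27.36, 29.39 and 26.49 FPKM. Gtf3c6, the smallest, was at 23.67, 16.77, 16.69 and 21.77 FPKM, low in both single treatments, with ratios of -0.49 and -0.50 against Vehicle. Gtf3c5, a DNA-contacting TFIIIC subunit, was at 7.71, 7.03, 6.79 and 8.33 FPKM, and Gtf3c3 at 9.54, 10.03, 9.61 and 8.21 FPKM, the former highest and the latter lowest in CLA+GW6471. The class median was -0.13 for CLA against Vehicle and 0.01 for GW6471 against Vehicle.

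Genes of the same machinery that the symbol rule leaves out were read from a list of 75 names, of which 65 were listed and 63 had a mean of at least 1 FPKM. Their median log2 ratio was -0.09 for CLA against Vehicle and 0.11 for CLA+GW6471 against CLA, while it was 0.0036 for CLA+GW6471 against GW6471 and -0.0027 for GW6471 against Vehicle. In CLA against Vehicle 4.76% of them were 1.5-fold higher (Nelfe, Tcea3 and Snapc3) and 4.76% lower (Ccdc101, Supt7l and Atxn7), against 7.34% and 4.97% of all genes. Set against CLA, CLA+GW6471 had 7.94% higher (Crcp, Ccdc101, Supt7l, Atxn7 and Snapc4) and 4.76% lower (Nelfe, Tcea3 and Snapc3), against 6.85% and 9.17%. With GW6471 as the base, CLA+GW6471 had 1.59% lower (Tcea3) and 0% higher, against 3.89% and 2.83%. GW6471 against Vehicle had 3.17% higher (Tcea3 and Snapc5) and 1.59% lower (Znrd1), against 3.29% and 2.11%. These shares were near or below those of all genes. Subunits whose names fall outside the rule were Crcp of Pol III, at 43.51 FPKM in Vehicle, 29.12 under CLA, 35.84 under GW6471 and 48.69 under both, Znrd1 of Pol I, at 38.64, 28.81, 25.52 and 37.45 FPKM, Cd3eap of Pol I, at 7.53, 5.84, 6.36 and 6.94 FPKM, and Twistnb of Pol I, nearly level at 10, 9.58, 10.15 and 9.56 FPKM. The mitochondrial polymerase gene Polrmt was at 10.12, 9.74, 10.07 and 11.75 FPKM. TBP itself was at 20.98, 16.61, 19.80 and 23.22 FPKM. Ubtf, the Pol I factor UBF, was at 35.27, 25.29, 28.15 and 35.31 FPKM. Of 12 SAGA partners 9 were lower and 3 higher in CLA against Vehicle, against 50.9% and 48.9% of all genes. Ccdc101 had the lowest log2 ratio of the 12, -0.71, at 24.65, 15.00, 18.69 and 24.22 FPKM. Supt3 had the highest, 0.42, at 13.24, 17.76, 16.16 and 12.43 FPKM.

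Of 25 pausing and elongation factors 13 were higher and 12 lower in CLA against Vehicle, against 48.9% and 50.9% of all genes. Their median log2 ratio was 0.0087, and their difference from the members was not tested. The NELF subunit Nelfe was at 21.12 FPKM in Vehicle, 38.94 under CLA, 23.91 under GW6471 and 17.95 under both. Nelfb was at 12.76, 18.96, 14.99 and 12.89 FPKM. The elongation factor gene Tcea3 was at 3.06, 7.81, 5.35 and 2.99 FPKM, and its ratio of 1.32 was the largest on the list. Cdk9, the pause-release kinase, was at 23.16, 24.53, 21.01 and 21.01 FPKM, while its cyclin Ccnt1 was lowest under CLA, at 30.64, 23.23, 38.60 and 32.32 FPKM. The elongation factor genes Tcea1, at 113.59, 90.57, 117.71 and 105.92 FPKM, and Aff4, at 34.00, 26.89, 40.72 and 38.08 FPKM, were also lowest under CLA.

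Transcript length moved with the ratios in comparisons that involve the GW6471 library. Spearman's rho between log2 ratio and the longest coding transcript, across genes and as a description, was 0.34 over the 98 members and 0.26 over 9762 genes for GW6471 against Vehicle. For CLA+GW6471 against GW6471 it was -0.34 and -0.24. In CLA against Vehicle it was -0.084 and -0.09, and in CLA+GW6471 against CLA -0.006 and 0.07. Genes are not independent replicates, and all of them share the same pairs of libraries.

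Members under 1000 nt, 11 genes that include several small polymerase subunits, had a median of -0.31 for GW6471 against Vehicle, where all 539 genes of that length had -0.13. In CLA+GW6471 against GW6471 the same genes had 0.38 against 0.15. In CLA against Vehicle they had -0.17, while all genes of that length had 0.077. In each of the 4 length classes the members' median was below that of all genes in CLA against Vehicle and in GW6471 against Vehicle, and above it in the other 2 comparisons. The median of genes in the same of 10 classes of transcript length was also taken off. After that, 3 in place of 5 members were 1.5-fold lower in CLA against Vehicle, against 4.8% of all genes with a length. Med13l had moved to -0.54 and Taf1a has no length. For the same lack of a length of Taf1a, no member in place of 1 was 1.5-fold lower in GW6471 against Vehicle, against 1.71%. How far length accounts for the low level of the shared subunits in the GW6471 library was not tested.

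**Figure D5:**
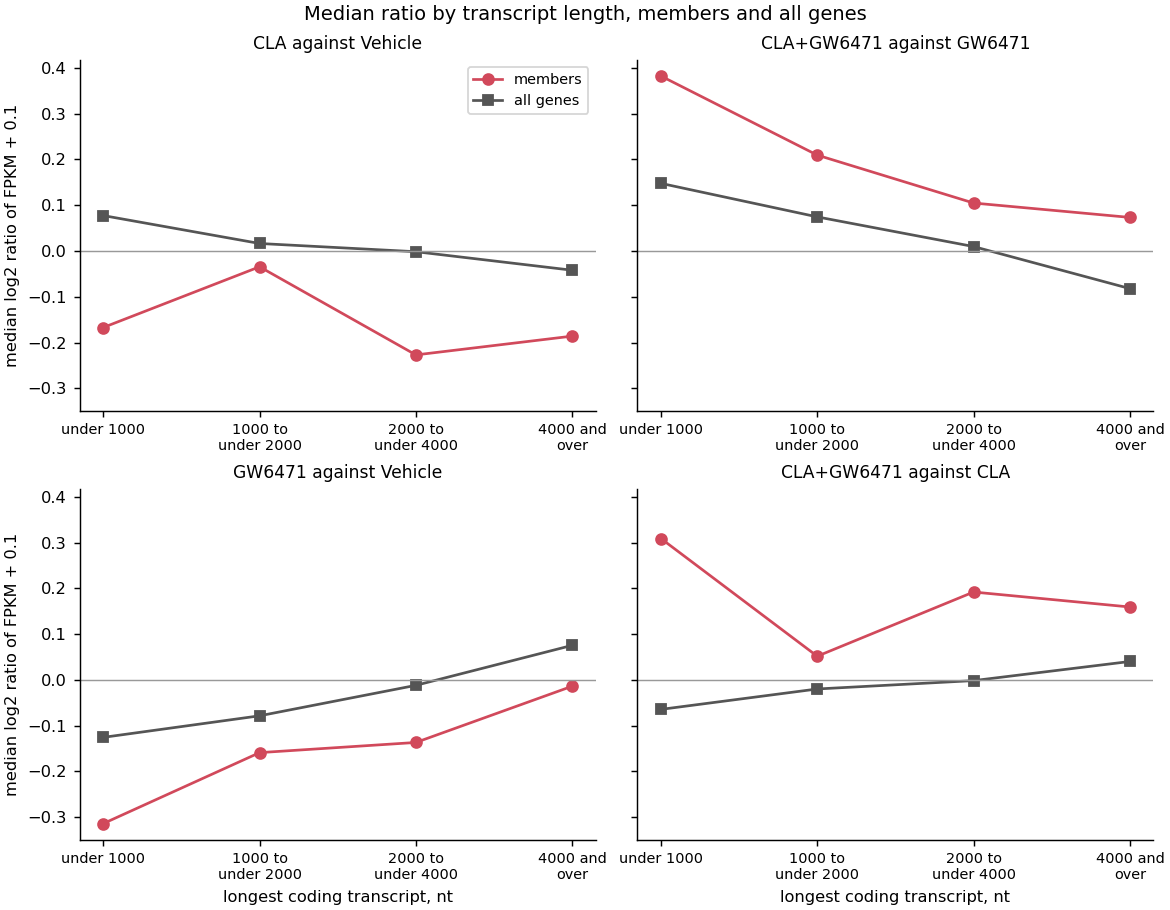
Median log2 ratio of FPKM + 0.1 by length of the longest coding transcript (under 1000, 1000 to under 2000, 2000 to under 4000, and 4000 nt and over) for members and all genes in the 4 comparisons. The members' line lies below that of all genes in the 2 comparisons with Vehicle and above it in the 2 others. Both lines slope with length in the 2 comparisons that involve the GW6471 library. Elsewhere the line of all genes slopes less, from 0.077 to -0.042 for CLA against Vehicle and from -0.064 to 0.040 for CLA+GW6471 against CLA.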

How the data were processed

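Liver RNA of 4 groups of mice was sequenced, 1 library per condition; TruSeq kits and a HiSeq 2000 are stated for the Vehicle and CLA groups. The authors deposited 1 table of FPKM values with 2 decimals per gene and library; the submitters' processing notes name BWA, Bowtie, Cufflinks and the mm9 build, with versions not given in the sources used here. As a check of the unit, 40 of 40 values of a supplementary sheet headed FPKM equalled the table. FPKM divides by length and library total, so a shift in a few abundant genes or in RNA quality moves all other values.

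Members were matched by symbol in Python 3.11.15 (pandas 2.3.3, scipy 1.17.1), and ratios taken on log2(FPKM + 0.1) for genes whose mean reached 1 FPKM. Adding 0.1 understates the change of low genes. Depth was estimated from the steps between low values of genes under 1000 nt, and reads from depth and the longest coding transcript of GENCODE vM1, which 101 of 103 members matched, also for mm9 coordinates. Intervals use those estimated reads without the 0.1. The calculation was tested on simulated data. Members and lists were chosen with earlier results of these data known. Genes were named by rule: per class the 3 highest and the 3 widest in spread, every member past 1.5-fold, members of stated roles, and those under 1 FPKM; a few others (Polr2c, Polr2k, Polr3g, Gtf2h2, Gtf2h4, Gtf2f2, Gtf2e1, Gtf2e2, Med4, Med6, Med8, Med16, Med23, Med25, Taf1b, Taf1d, Taf7, Taf11 and Polr2b) were named after their values were seen. Of those the rule names, 1 member is not reported here. Other scalings, filters, pseudocounts and folds were tried as alternatives.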

Additional observations from a re-analysis of the deposited data

Results flagged for a closer look

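In 3 members the ratio passed 1.5-fold in opposite directions in the 2 comparisons of CLA, which share no library. All 3 were lower in CLA against Vehicle and higher in CLA+GW6471 against GW6471, as were 1.42% of the 10355 genes, and 3% of genes went the opposite way. Polr2d had a log2 ratio of -0.63 for CLA against Vehicle and 0.59 for CLA+GW6471 against GW6471. For Taf12 the values were -0.68 and 0.63, and for Taf1a -0.82 and 0.76. With the same FPKM sum the ratio for CLA+GW6471 against GW6471 was 0.53 for Polr2d and 0.56 for Taf12, both short of 1.5-fold, and 0.69 for Taf1a. After the length adjustment it was 0.46 for Polr2d and 0.64 for Taf12, and Taf1a has no length. With a pseudocount of 1 Polr2d also fell short. The difference between the 2 ratios was not tested, since each condition had 1 library.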

How the results depend on the processing

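With 1 library per condition no replicate could be left out. No paired analysis was possible because the groups share only the replicate number 1. The direction of the members' median ratio was kept in all 4 comparisons with pseudocounts of 0.01 and 1, without a minimum level, with a minimum of 5 FPKM, with libraries brought to the same FPKM sum, with median-of-ratios scaling and after taking off the median of genes of like length, the last chosen after seeing the data. Scaling to the same FPKM sum moved the all-gene medians to between -0.061 and 0.038, and the members' median for CLA+GW6471 against GW6471 from 0.11 to 0.048, where the all-gene median was -0.061. Without a minimum level 1 member (Taf9b) was 1.5-fold higher in CLA against Vehicle, against 9.41% of all genes. The same 1 was lower in CLA+GW6471 against CLA, against 11% of all genes. The counts of members hang on the fold used. At a ratio of 5 to 4 they were, beside the share of all genes, 5 higher (18.4%) and 26 lower (17%) in CLA against Vehicle. In CLA+GW6471 against GW6471 they were 27 higher (13%) and 2 lower (13.4%). In GW6471 against Vehicle they were 0 higher (10.9%) and 19 lower (10.5%). In CLA+GW6471 against CLA they were 32 higher (20.2%) and 6 lower (20.4%). At 2-fold 0 members were left in every comparison, where 0.309% to 2.67% of all genes passed. With the same FPKM sum the 7 members higher in CLA+GW6471 against GW6471 became 5 (without Polr2d and Taf12), against 1.93% of all genes. The 5 lower in CLA against Vehicle became 6 (with Gtf2h3), against 5.65%. The 12 higher in CLA+GW6471 against CLA became 14 (with Med8 and Taf3), against 6.99%. After the length adjustment 3 members were lower in CLA against Vehicle (without Med13l and Taf1a), against 4.8% of all genes with a length. In GW6471 against Vehicle 0 were lower (without Taf1a), against 1.71%. In CLA+GW6471 against GW6471, 5 were higher (without Polr2d, Med11 and Taf1a, with Polr2a), against 2.3%. In CLA+GW6471 against CLA, 11 were higher (without Med12 and Taf1a, with Med8), against 6.63%. Taf1a was left out there for want of a length. A pseudocount of 1 took off Polr2d in CLA+GW6471 against GW6471, Med13l in CLA against Vehicle, and Med11 and Med12 in CLA+GW6471 against CLA. Of 224 class medians 5 changed sign, as did 48 of 2040 ratios of single members. The cause of these changes was not tested beyond the settings' own construction.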
